A study of Sus scrofa with 33 samples.

Results

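The genes described here encode the subunits of the proteasome together with its activators, its inhibitor and its assembly factors. They were taken as the genes whose single symbol in the platform annotation begins with PSMA, PSMB, PSMC, PSMD, PSME, PSMF or PSMG followed by a number, and each was read from 1 probe set, the one with the highest mean over the 33 arrays. This gave 40 of the 6765 genes measured. The core particle was represented by 16 genes (PSMA1 to PSMA7, PSMB1 to PSMB8 and PSMB10). The regulatory cap had 17 (PSMC1, PSMC2, PSMC3, PSMC5 and PSMC6, and PSMD1 to PSMD6, PSMD8 and PSMD10 to PSMD14). The remaining 7 were the activators PSME1 to PSME4, the inhibitor PSMF1 and the core assembly chaperones PSMG1 and PSMG3. All 40 had a RefSeq entry of the same symbol. A further 9 RefSeq symbols that fit the same pattern were not analysed here: PSMA8, PSMB9, PSMB11, PSMC3IP, PSMC4, PSMD7, PSMD9, PSMG2 and PSMG4.

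The proteasome is the cell's main machine for breaking down proteins tagged with ubiquitin. Its barrel-shaped core is built of stacked alpha and beta rings, and the beta subunits PSMB5, PSMB6 and PSMB7 carry the catalytic sites. PSMB8, PSMB9 and PSMB10 take their places in the immunoproteasome, which interferon induces and which shapes peptides for MHC class I. The cap recognises, unfolds and feeds in the substrate. Its base holds a ring of ATPases, the PSMC subunits, and its lid removes the ubiquitin chain. Other particles can bind the ends of the core in place of the cap, and dedicated chaperones assemble core and base. In heart muscle this system turns over contractile and damaged proteins.

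The study measured RNA of the right ventricular free wall in 11 pigs on Affymetrix porcine arrays, 1 array for each of 3 biopsies of every pig. The baseline biopsy preceded treatment, and the next came after 120 min of banding, which narrows the pulmonary artery and is used to bring on right ventricular failure. Pigs then went by randomisation into 2 arms. The 6 pigs of the shunt arm received a modified Glenn shunt, which sends venous blood of the upper body straight to the lungs, past the right ventricle, and were biopsied after 60 min of banding with the shunt. The 5 pigs of the control arm were biopsied after 60 min more of banding, so control pigs were banded too and both arms had the same treatment up to the 120 min biopsy. No pig was followed without banding, so a change between biopsies covers everything that passed between them. The labels used here give no age, sex or breed. Values are log2 RMA values, and a change is a difference of log2 values within a pig, from limma with pig as a block. A gene is said to have passed when its Benjamini-Hochberg adjusted p over 23999 probe sets was below 0.05. Such p-values rest on how unevenly these pigs changed, the spread left once each pig's own level is taken out. The comparison of arms at baseline has no block and rests on the spread of levels between pigs.

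The arrays were alike in distribution, with medians between 6.10 and 6.17 and no pair correlating below 0.956, and their number limits the precision. Ventricular muscle genes were high on every array (MYH7 between 14.87 and 15.05, TNNI3 between 14.70 and 14.85), which fits the labelled ventricle. The 3 atrial markers measured varied widely over the arrays, NPPA from 5.97 to 11.59, MYL4 from 7.13 to 10.15 and SLN from 4.79 to 7.61. Spiked-in controls divided the arrays into 3 sets. The DapX-3 control read 2.77 to 3.32 on the 12 arrays of shunt pigs 1 to 4, 9.67 to 10.24 on the 6 of shunt pigs 5 and 6, and 8.07 to 10.35 on the 15 of the control arm. BioB-5 read 7.77 to 8.34, 5.62 to 6.0 and 8.54 to 9.70 in the same order. Changes within a pig lie within 1 set, but in any comparison between arms the arm and the array set cannot be told apart. Fewer cells of a type and less RNA per cell cannot be told apart in bulk tissue. Leukocyte markers were higher in the later biopsies of the shunt arm: the mean level over 17 of 22 listed markers went from 5.73 to 6.13 and 6.32 over the 3 biopsies of the shunt arm (group ranges 5.58 to 5.84, 5.72 to 6.46 and 5.94 to 6.96), and from 5.77 to 5.73 and 5.88 in the control arm (5.63 to 5.86, 5.61 to 5.88 and 5.74 to 6.02). The mean over 9 of 11 ventricular markers went from 14.30 to 14.18 and 14.11 in the shunt arm, and from 14.26 to 14.23 and 14.22 in the control arm. At 120 min over all pigs, where 13.1% of all genes were called higher and 20.8% lower, 4 of the 17 leukocyte markers were called higher and 1 lower, and 1 of the 9 ventricular markers was called lower. By arm, 6 leukocyte markers were higher and none lower in the shunt pigs, where 11.7% of all genes were higher and 16.5% lower. In the control pigs none was higher and 1 lower, where 3.44% of all genes were higher and 3.58% lower. Of 7 endothelial markers 1 was called higher and 2 lower, of 4 fibroblast markers 1 higher and 1 lower, and none of 3 atrial or 2 erythrocyte markers passed in limma, with 1 of these 5 at an unadjusted p below 0.05. Their part in the results was not tested.

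The first comparison asks what 120 min of banding did to these genes, over all 11 pigs. Of the 40 members, 37 had changes within 0.25 of zero on the log2 scale. The activator PSME4 rose 1.63-fold, the base assembly chaperone PSMD5 fell 1.46-fold, and the core assembly chaperone PSMG3 fell 1.29-fold, each in the same direction in 11 of 11 pigs. PSMD5 is counted with the cap by its symbol, and the largest change among the other core and cap genes was 1.15-fold (PSMD12). In all, 7 of 40 members passed, 3 higher and 4 lower, where 29% of all probe sets passed, and 13.1% of the genes were called higher and 20.8% lower. At an unadjusted p below 0.05, 6 members were higher and 5 lower. Counts at an unadjusted p are given throughout without the share of all genes, so no excess is read from them.

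**Figure D1:**
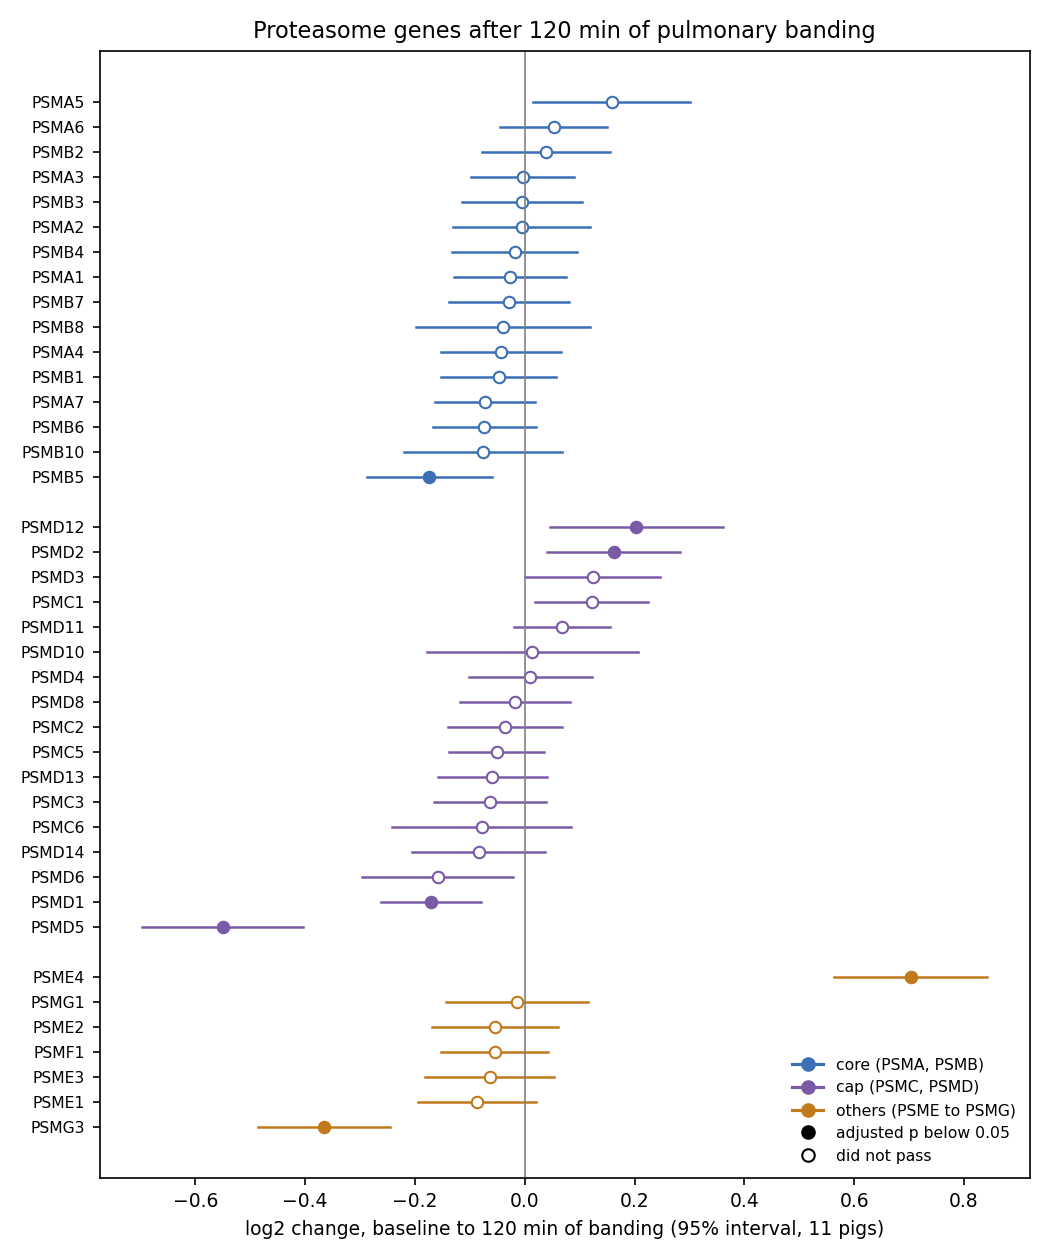
Log2 change from baseline to 120 min of banding (x axis) of each of the 40 proteasome genes, by particle, as the mean over 11 pigs with its 95% interval; filled points passed the threshold. PSME4 at 0.70, PSMD5 at -0.55 and PSMG3 at -0.37 lie apart from the others, which lie between -0.17 and 0.20.

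The other changes were small and of both signs. The median change was -0.04 over the members and -0.02 over all genes. A change within 0.25 of zero was found in 92.5% of the members and in 77.6% of all genes, and the SD over genes was 0.18 for the members and 0.32 for all. Among the 33 members that did not pass, the 95% intervals of the change lay between -0.30 (PSMD6) and 0.30 (PSMA5), and 31 of the 33 intervals lay within 0.25 of zero. By particle, the core ranged from -0.17 to 0.16 with a median of -0.03 and 1 of 16 genes called, the cap from -0.55 to 0.20 with a median of -0.04 and 4 of 17 called, and the other 7 from -0.37 to 0.70 with a median of -0.05 and 2 called. Averaged over the members, the change per pig ran from -0.12 to 0.09 and was positive in 5 of 11 pigs.

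PSME4 encodes the activator PA200, a single large chain that caps the end of the core and is known for the degradation of acetylated histones. In the shunt arm its values were 8.39 to 9.03 at baseline (median 8.59), 9.10 to 9.66 at 120 min (median 9.47) and 9.04 to 9.54 at the last biopsy (median 9.33). In the control arm pigs 1 to 5 read 8.81, 8.48, 9.13, 8.55 and 8.69 at baseline, 9.47, 8.98, 9.38, 9.50 and 9.11 at 120 min, and 9.62, 8.96, 9.72, 9.06 and 9.03 at the last biopsy. Every shunt pig was above the whole baseline range of its arm at both later biopsies, whereas in the control arm the high baseline of pig 3 (9.13) overlapped with the later values of the others. The change to 120 min was 0.70 ± 0.07 (SE, adjusted p = 5.55e-08). The shunt pigs had 0.83 ± 0.09 (adjusted p = 8.64e-07) and the control pigs 0.55 ± 0.10 (adjusted p = 0.00147). Fitted alone, each array set passed, with 0.84 for shunt pigs 1 to 4, 0.81 for shunt pigs 5 and 6, and 0.55 for the control arm.

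The other activators form the PA28 family. PSME1 and PSME2 make up the ring that interferon induces and PSME3 a nuclear ring of its own. None of the 3 passed: the changes were -0.09 ± 0.05 for PSME1, -0.05 ± 0.06 for PSME2 and -0.06 ± 0.06 for PSME3, with lower limits of the 95% interval at -0.19, -0.17 and -0.18. PSME1 lay between 9.69 and 10.25 at baseline in the shunt arm (median 10.09) and between 9.80 and 10.13 at 120 min (median 9.87). In the control arm pigs 1 to 5 read 10.04, 9.83, 9.71, 9.74 and 9.98 before and 9.82, 9.82, 9.74, 9.59 and 10.05 after. The biopsies overlapped in both arms for this gene, and for PSME2 and PSME3 as well. PSMF1, the inhibitor PI31, had a change of -0.05 ± 0.05 and did not pass.

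PSMD5 belongs to the chaperones that put the ATPase base together and leaves before the cap is complete. In the shunt arm its values fell from 8.30 to 8.64 at baseline (median 8.50) to between 7.70 and 8.13 at 120 min (median 7.83), and they lay between 7.67 and 8.12 at the last biopsy (median 7.93). Control pigs 1 to 5 read 8.0, 8.02, 8.20, 7.91 and 7.89 at baseline, 7.53, 7.67, 7.36, 7.78 and 7.12 at 120 min, and 7.71, 7.33, 7.63, 7.30 and 7.37 at the last biopsy. In neither arm did a later value reach the baseline range of that arm. The change to 120 min was -0.55 ± 0.07 (SE, adjusted p = 2.92e-06). The shunt pigs had -0.58 (adjusted p = 9.41e-05) and the control pigs -0.51 (adjusted p = 0.00415). Fitted alone, the array set of shunt pigs 1 to 4 gave -0.64 and that of the control arm -0.51, both of which passed. The set of shunt pigs 5 and 6 gave -0.45 and did not pass (adjusted p = 0.104). The other base chaperone measured, PSMD10, known as gankyrin, had a change of 0.01 ± 0.09 and did not pass.

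PSMG3 pairs with PSMG4 to help build the alpha ring of the core. Shunt pigs had 7.89 to 8.18 at baseline (median 8.09), 7.44 to 7.79 at 120 min (median 7.68) and 7.34 to 7.93 at the last biopsy (median 7.64). The 5 control pigs had 8.27, 8.14, 8.02, 8.15 and 8.0 at baseline, 7.87, 7.90, 7.87, 7.67 and 7.75 at 120 min, and 7.96, 7.80, 7.62, 7.83 and 7.92 at the last biopsy. Baseline and 120 min did not overlap in either arm. At the last biopsy shunt pigs 4 (7.93) and 5 (7.90) were at or above the lowest baseline value of their arm (7.89). The change to 120 min was -0.37 ± 0.06 (SE, adjusted p = 3.55e-05). The shunt pigs had -0.42 (adjusted p = 0.00033) and the control pigs -0.30 (adjusted p = 0.0351), where the call ended without any one of control pigs 1, 2, 4 and 5 (-0.26 to -0.32). Fitted alone, the array set of shunt pigs 1 to 4 gave -0.50 and that of the control arm -0.30, both of which passed, while the set of shunt pigs 5 and 6 gave -0.25 and did not pass (adjusted p = 0.352). PSMG1, a chaperone of the other pair, had a change of -0.01 and did not pass.

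**Figure D2:**
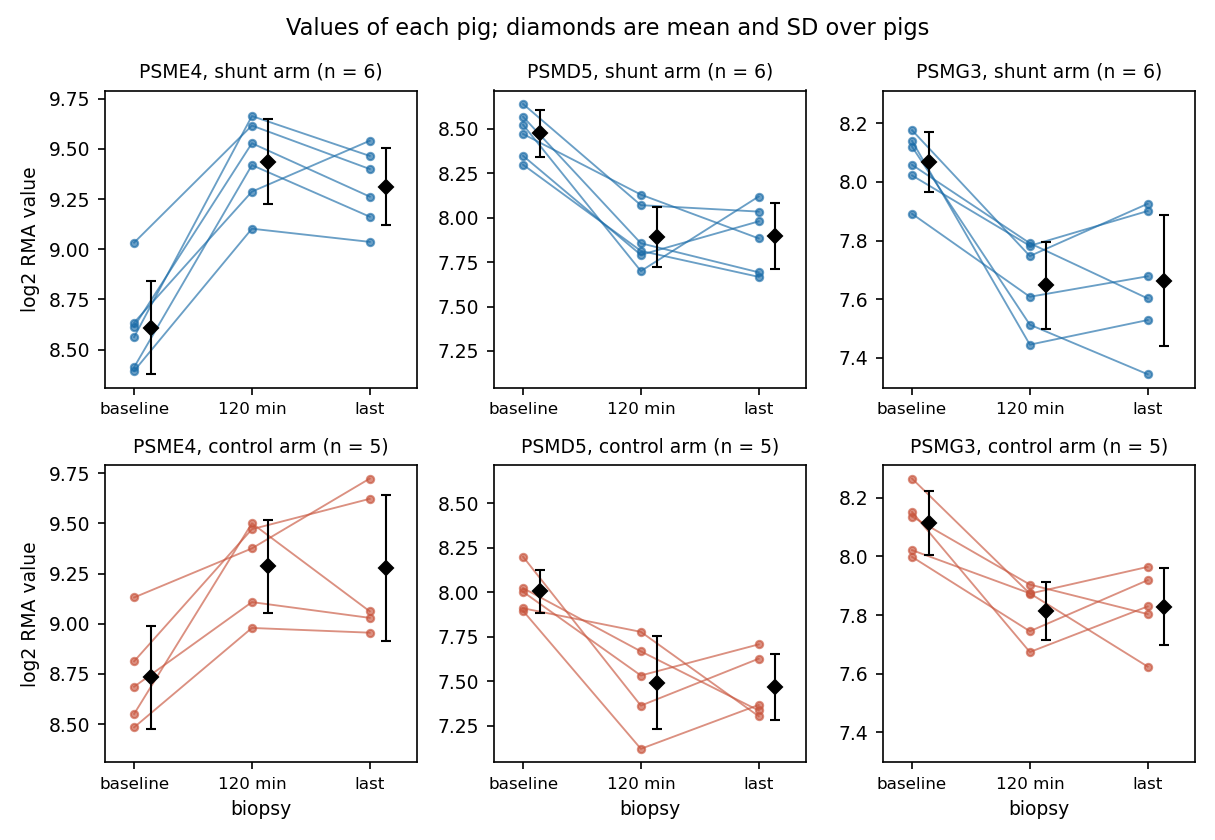
Log2 RMA values (y axis) of PSME4, PSMD5 and PSMG3 at the 3 biopsies (x axis), a line per pig, with the shunt arm above and the control arm below; diamonds give the mean and SD over 6 and 5 pigs. In every pig PSME4 was higher, and PSMD5 and PSMG3 were lower, at 120 min than at baseline, and from 120 min to the last biopsy single pigs moved both up and down.

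Among the structural subunits of the cap, 2 rose and 1 fell at 120 min. PSMD12, a subunit of the lid, lay between 8.50 and 8.88 at baseline in the shunt arm (median 8.78) and between 8.83 and 9.44 at 120 min (median 9.04). Control pigs 1 to 5 read 8.66, 8.63, 8.88, 8.46 and 8.58 at baseline and 8.73, 8.88, 8.45, 8.95 and 8.60 at 120 min. The ranges overlapped in both arms, with 10 of 11 pigs higher. The change was 0.20 ± 0.08 (SE, adjusted p = 0.0476), and the call ended without any one of shunt pigs 2 to 6 or control pigs 1, 2, 4 and 5 (0.17 to 0.22) and in 3 of 10 other settings (no block, centring, only the arrays compared). PSMD2, a scaffold of the base that holds ubiquitin receptors, lay between 8.99 and 9.37 at baseline in the shunt arm (median 9.23) and between 9.21 and 9.50 at 120 min (median 9.35). Control pigs 1 to 5 read 9.42, 9.32, 9.35, 9.39 and 9.29 before and 9.47, 9.65, 9.68, 9.37 and 9.60 after, so the biopsies overlapped in both arms. It rose by 0.16 ± 0.06 (adjusted p = 0.0417, higher in 9 of 11 pigs), and its call ended without any one of shunt pigs 3 to 6 or control pigs 2, 3 and 5 (0.14 to 0.17).

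PSMD1 is the second scaffold of the base. In the shunt arm it went from between 10.31 and 10.62 (median 10.41) to between 10.07 and 10.48 (median 10.29). The control pigs read 10.52, 10.44, 10.51, 10.50 and 10.52 before and 10.21, 10.40, 10.19, 10.46 and 10.28 after. The biopsies overlapped in both arms, although 11 of 11 pigs were lower at 120 min. It fell by 0.17 ± 0.04 (SE, adjusted p = 0.00464). A second probe set of the gene had a change of -0.05 and did not pass (adjusted p = 0.644). The mean of the 2 probe sets ended the call (-0.11). Fitted alone, no array set gave a call at 120 min for PSMD1, PSMD12 or PSMD2. None of the 5 ATPases passed over all pigs. PSMC1 had the largest of their changes at 0.12 ± 0.05 (adjusted p = 0.0683), and the rest lay between -0.08 and -0.04. The remaining lid subunits ran from -0.16 for PSMD6 to 0.12 for PSMD3, and none passed.

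In the core, the chymotrypsin-like catalytic subunit PSMB5 was the one gene of 16 called. Its values were 10.92 to 11.23 at baseline in the shunt arm (median 10.97), 10.66 to 10.95 at 120 min (median 10.76) and 10.46 to 10.96 at the last biopsy (median 10.81). Control pigs 1 to 5 read 10.96, 10.82, 11.02, 10.81 and 11.15 at baseline, 10.74, 10.88, 10.81, 10.79 and 10.97 at 120 min, and 10.96, 10.63, 10.99, 10.79 and 10.93 at the last biopsy. The ranges overlapped, and control pig 2 was the 1 pig of 11 that was not lower at 120 min. The change was -0.17 ± 0.06 (SE, adjusted p = 0.0198), and the call ended without shunt pig 3 (-0.14). Fitted alone, no array set gave a call for PSMB5. The other 2 constitutive catalytic subunits, the caspase-like PSMB6 and the trypsin-like PSMB7, had changes of -0.07 ± 0.05 and -0.03 ± 0.05 and did not pass. The 7 alpha subunits, which form the gate and the docking face of the core, ran from -0.07 for PSMA7 to 0.16 for PSMA5 (adjusted p = 0.0888), and none passed.

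The inducible catalytic subunits measured, PSMB8 and PSMB10, did not pass at 120 min. PSMB8 had a change of -0.04 ± 0.08 (95% interval -0.20 to 0.12) and PSMB10 of -0.08 ± 0.07 (95% interval -0.22 to 0.07). Averaged over the 3 biopsies, the level of PSMB8 was 7.01, 6.62, 7.66, 7.23, 6.47 and 6.66 in shunt pigs 1 to 6 and 7.13, 8.07, 6.52, 7.40 and 6.61 in control pigs 1 to 5. The SD of these pig means about the mean of their arm was 0.54, and the residual SD within a pig was 0.19. Taken in this way within the arms, no other member had an SD between pigs above 0.21 (PSME4). A difference between the arms does not enter this SD, so genes such as PSMD10 and PSMD5 varied more over all pigs than it shows. The median of this SD between pigs was 0.10 over the members and 0.14 over all genes, and the median SD within a pig 0.12 and 0.16. The high and the low pigs of PSMB8 were found in both arms, with control pig 2 the highest and shunt pig 5 the lowest. PSMB10 lay between 8.23 and 8.67 at baseline in the shunt arm (median 8.39) and between 8.06 and 8.45 at 120 min (median 8.35). In control pigs 1 to 5 it read 8.12, 8.27, 8.24, 8.38 and 8.22 at baseline and 8.07, 8.20, 8.42, 7.99 and 8.45 at 120 min, so the biopsies overlapped in both arms.

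**Figure D3:**
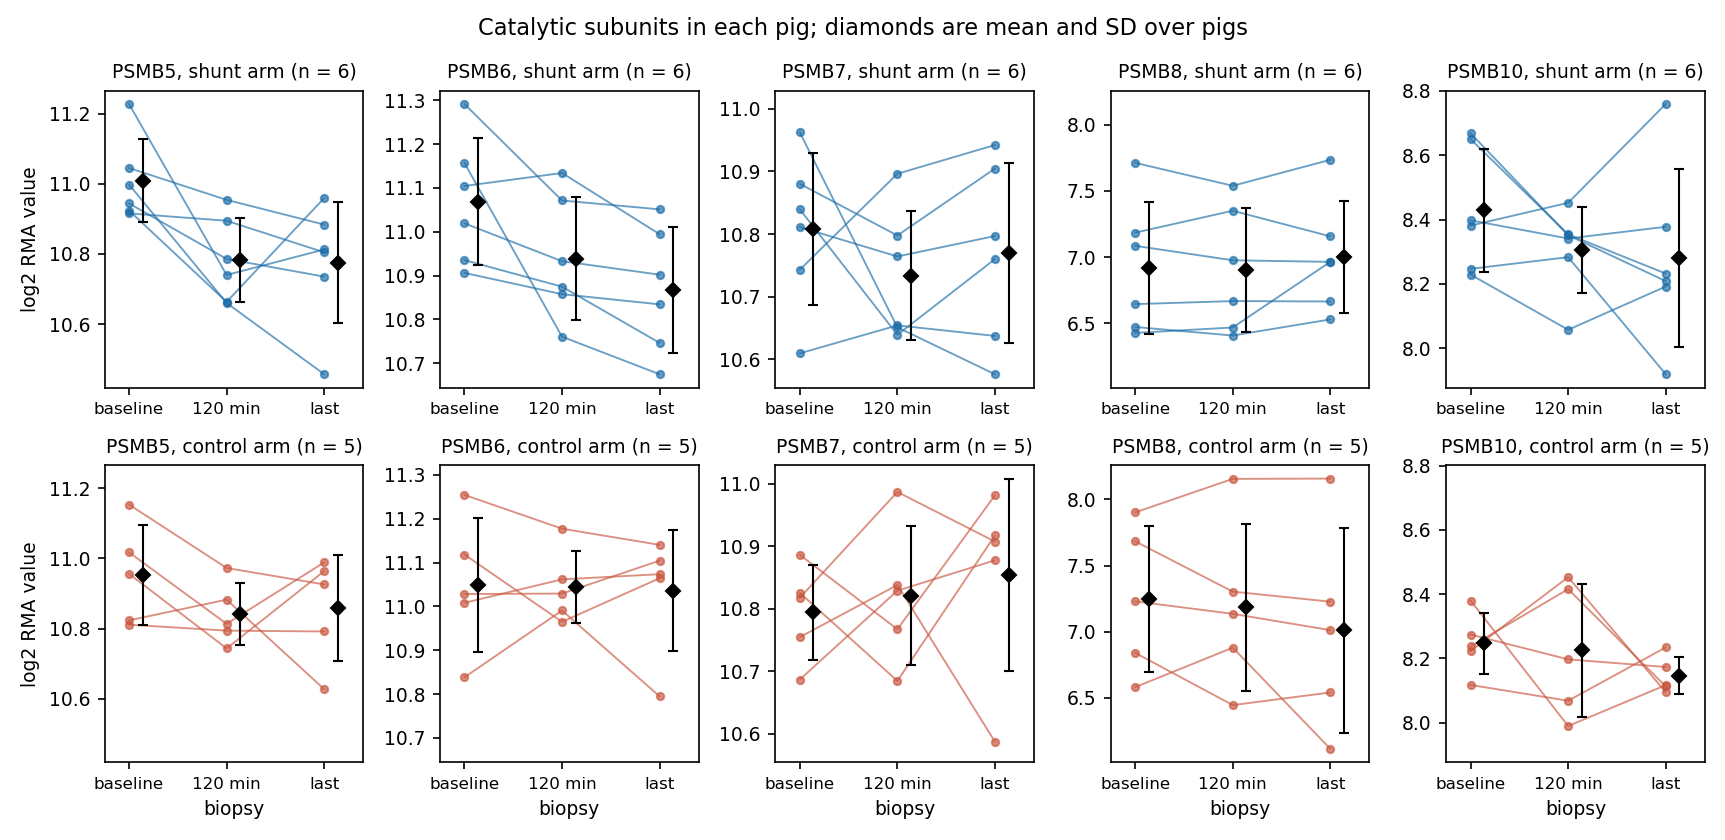
Log2 RMA values (y axes, a scale for each gene) of the constitutive catalytic subunits PSMB5, PSMB6 and PSMB7 and the inducible PSMB8 and PSMB10 at the 3 biopsies, a line per pig; diamonds give the mean and SD over 6 shunt pigs (above) and 5 control pigs (below). The lines of PSMB8 lie at different levels from pig to pig, between 6.11 and 8.16. Some of them cross, and they do not move together over the biopsies.

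Taken by arm, the change to 120 min passed for 6 members in the shunt arm, where 24.1% of the probe sets passed, with 11.7% of the genes higher and 16.5% lower. PSME4, PSMD12 (0.31) and the ATPase PSMC1 (0.23) were higher and PSMD5, PSMG3 and PSMB5 (-0.23) lower. PSMC1 lay between 9.58 and 10.14 at baseline in the shunt arm (median 9.76) and between 9.87 and 10.25 at 120 min (median 10.07). It was higher in 6 of 6 pigs with overlapping ranges, and lost its call without any one of shunt pigs 2, 4 and 6 (0.16 to 0.21). PSMD12 lost its call in this arm without any one of shunt pigs 3, 4 and 6 (0.25 to 0.31), and PSMB5 without any one of shunt pigs 1, 3 and 6 (-0.17 to -0.24). In the control arm 3 members passed, PSME4 higher and PSMD5 and PSMG3 lower, where 6.73% of the probe sets passed, with 3.44% of the genes higher and 3.58% lower. The difference between the arms in this change, which had no difference in treatment behind it, passed for no member in limma and for 0% of the probe sets. PSMC1 alone had an unadjusted p below 0.05 for that difference, at 0.23 ± 0.10 (adjusted p = 0.681).

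The next comparisons ask what the last hour added. From 120 min to the last biopsy no member passed in limma in either arm, and 0% of all probe sets passed in each. In the shunt arm 2 members had an unadjusted p below 0.05, and in the control arm 0. The 2 were PSMA6, an alpha subunit, at 0.14 ± 0.06, and PSMA7, another alpha subunit, at -0.13 ± 0.06 (adjusted p = 0.544 for both). The 95% intervals of all 40 members lay between -0.31 and 0.46 in the shunt arm and between -0.41 and 0.37 in the control arm, with medians of the change at 0.05 in both. Averaged over the members, this change was positive in 6 of 6 shunt pigs and 3 of 5 control pigs, with means of 0.05 ± 0.04 and 0.03 ± 0.11 (SD over pigs). The change of PSME4 over this hour was -0.12 for shunt and -0.01 for control pigs, with neither past the threshold. For PSMD5 it was 0.00 and -0.02, and for PSMG3 0.02 and 0.01, and none of these passed. Single pigs moved in both directions over this hour: PSME4 by -0.27 to 0.25 in shunt and -0.44 to 0.35 in control pigs, PSMD5 by -0.25 to 0.42 and -0.47 to 0.26, and PSMG3 by -0.19 to 0.18 and -0.25 to 0.17. The arms are the comparison for which the pigs were randomised, and the difference between them over this hour passed for no member and for 0% of the probe sets, with no member below an unadjusted p of 0.05. The smallest p was that of PSME2, at 0.21 ± 0.11 (95% interval -0.02 to 0.44, adjusted p = 1.00). PSME2 lay between 9.90 and 10.55 at 120 min in the shunt arm (median 10.04) and between 9.85 and 10.59 at the last biopsy (median 10.38). Control pigs 1 to 5 read 9.89, 10.05, 10.20, 9.94 and 10.02 at 120 min and 9.96, 10.04, 9.87, 9.99 and 9.96 at the last biopsy, so the 2 biopsies overlapped in both arms.

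From the first biopsy to the last, PSME4, PSMD5 and PSMG3 passed in both arms. In the control arm they were the only 3 members that did, 1 higher and 2 lower, where 8.79% of the probe sets passed, with 4.39% of the genes higher and 5.59% lower. The changes there were 0.55 ± 0.10 for PSME4 (SE, adjusted p = 0.00115), -0.54 ± 0.11 for PSMD5 (adjusted p = 0.00202) and -0.29 ± 0.09 for PSMG3 (adjusted p = 0.0374). The PSMG3 call ended without any one of control pigs 1 to 4 (-0.26 to -0.28). At an unadjusted p below 0.05 there were 2 members higher and 4 lower, among them PSMB8 at -0.24 ± 0.11 (adjusted p = 0.228), with 4 of 5 pigs lower.

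In the shunt arm 14 of 40 members passed over the course, 7 higher and 7 lower, where 32.6% of the probe sets passed, with 16.7% of the genes higher and 23.6% lower. PSME4 was higher by 0.70 ± 0.09 (SE, adjusted p = 2.88e-06), the lid subunit PSMD12 by 0.45 ± 0.10 (adjusted p = 0.0013) and the alpha subunit PSMA5 by 0.41 ± 0.09 (adjusted p = 0.00152). PSMD5 was lower by 0.58 ± 0.10 (adjusted p = 5.36e-05), PSMG3 by 0.40 ± 0.08 (adjusted p = 0.000281) and PSMB5 by 0.23 ± 0.07 (adjusted p = 0.0182). The first 5 of these kept their calls whichever pig was left out, and PSMB5 lost it without shunt pig 1 (-0.17) or 3 (-0.20). Of those 5, PSMD12, PSMA5 and PSMG3 did not pass in 1 array set of the shunt arm fitted alone (adjusted p = 0.178, 0.351 and 0.234). PSMD12 rose in 6 of 6 pigs, from 8.50 to 8.88 at baseline to between 8.92 and 9.58 (median 9.23), with no overlap. PSMA5 rose in 5 of 6 pigs, from 9.54 to 9.81 (median 9.62) to between 9.61 and 10.29 (median 10.09), and shunt pig 5 at 9.61 was the one that stayed within the baseline range. In the control arm the same 2 genes had changes of 0.18 ± 0.11 (adjusted p = 0.381) and 0.13 ± 0.10 (adjusted p = 0.519).

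The other 8 members called in the shunt arm had changes between 0.16 and 0.25 in size. Higher were PSMC1 (0.25), PSMA6 (0.23), PSMD2 (0.21) and the lid subunit PSMD11 (0.17), and lower were PSMB6 (-0.20), PSMA7 (-0.19), PSMF1 (-0.19) and PSMD1 (-0.16). PSMA6 went from 10.95 to 11.18 at baseline to between 11.13 and 11.38, PSMB6 from 10.91 to 11.29 to between 10.67 and 11.05, and PSMA7 from 12.22 to 12.49 to between 12.07 and 12.30, and the ranges of each overlapped. PSMC1 kept its call with any pig left out. The others did not: PSMA6 lost it without shunt pig 2 (0.19), PSMB6 and PSMA7 without shunt pig 1 (-0.15 and -0.16), and PSMD11 without any one of shunt pigs 4 to 6 (0.16 to 0.17). PSMF1 lost it without any one of shunt pigs 1, 2, 3 and 5 (-0.15 to -0.18), PSMD1 without any one of shunt pigs 1, 2, 3, 5 and 6 (-0.14 to -0.17), and PSMD2 without any one of shunt pigs 2, 3, 5 and 6 (0.14 to 0.21) or control pigs 1, 2 and 5 (0.21). Of 10 other settings of the fit and the probe sets, 6 ended the call of PSMF1, 5 that of PSMD1, 3 each those of PSMD2 and PSMD11, 2 that of PSMB6 and 1 each those of PSMA6, PSMA7 and PSMC1. The second probe set of PSMF1 had a change of 0.08 and did not pass (adjusted p = 0.628), and the 2 other probe sets of PSMD11 had 0.25 and -0.02 and did not pass. Of the 7 alpha subunits, 2 were called higher and 1 lower, and of the 7 constitutive beta subunits 2 were called lower and none higher. Of all genes, 16.7% were higher and 23.6% lower, so no difference between the rings is read from these counts. Among these calls only that of PSMA5 held whichever pig was left out.

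**Figure D4:**
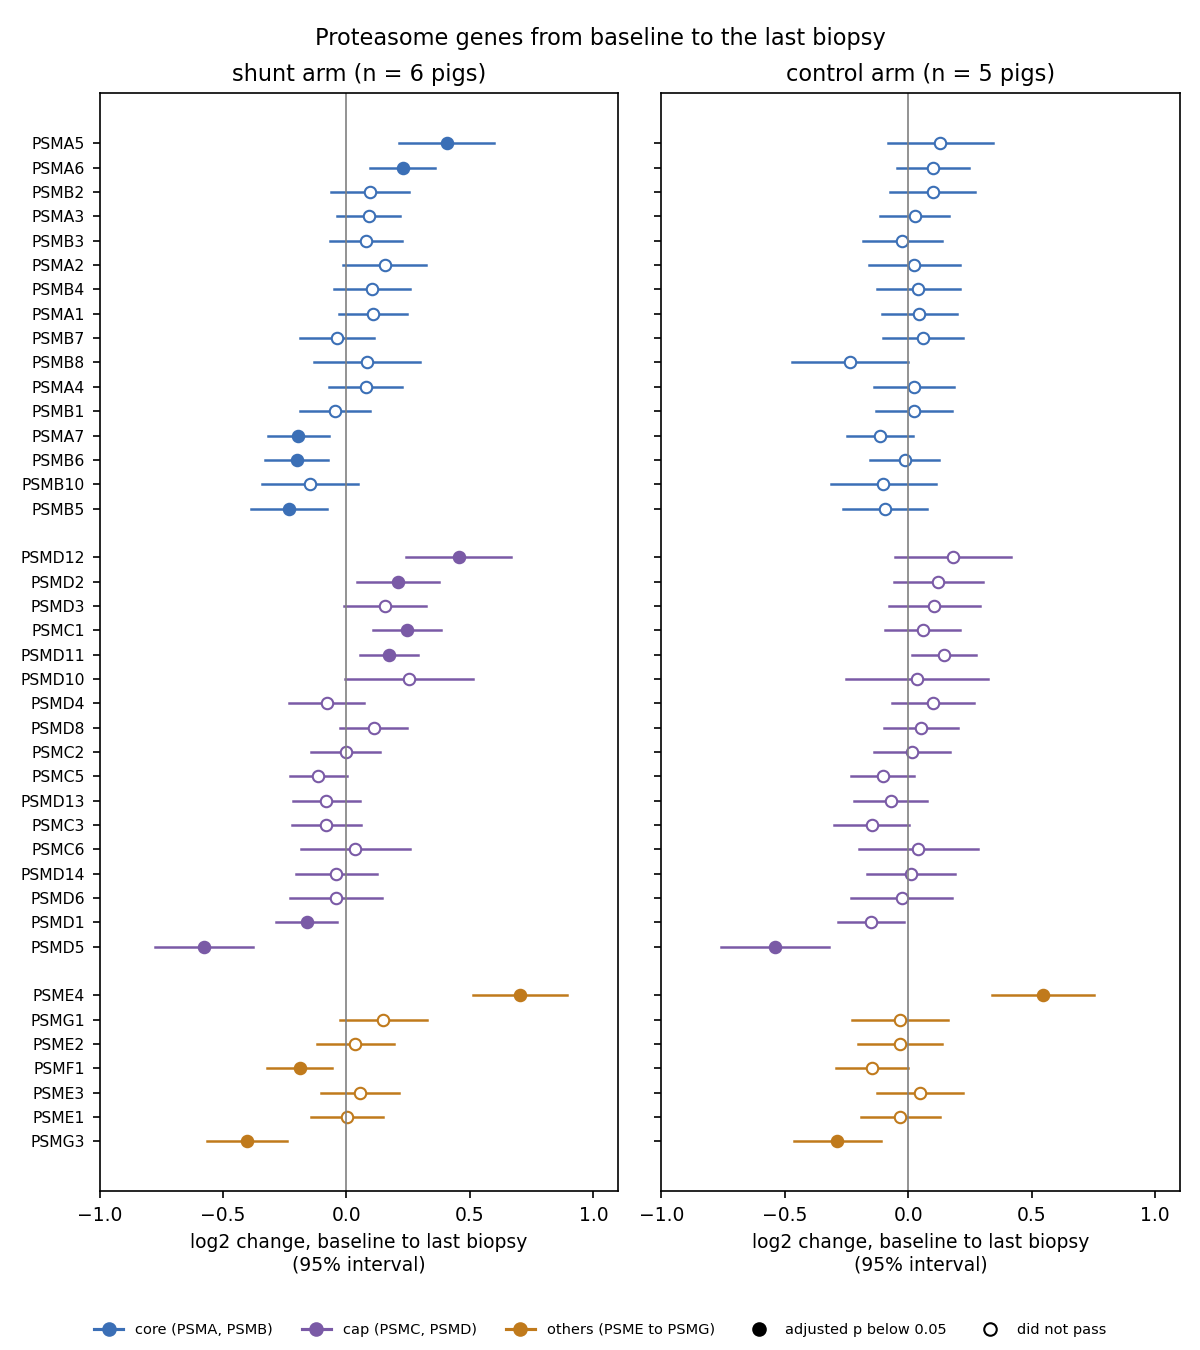
Log2 change from baseline to the last biopsy (x axis) of each proteasome gene with its 95% interval, in 6 shunt pigs (left) and 5 control pigs (right), in the order of the change at 120 min; filled points passed the threshold. The shunt arm has 14 filled points and the control arm 3, and PSME4, PSMD5 and PSMG3 are filled in both.

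That more members passed in the shunt arm does not show that the arms differed. The difference between arms over the whole course passed for none of the 40 in limma and for 0.00417% of the probe sets, and no member had an unadjusted p below 0.05 for it. The smallest was that of PSMB8, at 0.32 ± 0.15 (95% interval 0.00 to 0.64, adjusted p = 0.411), from changes of 0.08 with the shunt and -0.24 without it. Shunt pigs had PSMB8 values of 6.43 to 7.71 at baseline (median 6.86) and 6.53 to 7.74 at the last biopsy (median 6.96). Those of control pigs 1 to 5 were 7.23, 7.90, 6.58, 7.68 and 6.84 at baseline and 7.01, 8.16, 6.11, 7.23 and 6.54 at the last biopsy. The biopsies overlapped widely in both arms. For PSMD12 the difference between arms was 0.27 and for PSMA5 0.27 (adjusted p = 0.502 and 0.436). Over the 40 members the 95% intervals of the difference lay between -0.41 (PSMD4) and 0.64 (PSMB8).

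At baseline, before any treatment, no member differed between the arms past the threshold on the 11 baseline arrays, where 0.0208% of the probe sets did. At an unadjusted p below 0.05 there were 3 members, PSMD5 at 0.47 ± 0.09, PSMD10 at 0.46 ± 0.09 and PSMC3 at -0.27 ± 0.09 (shunt minus control, adjusted p = 0.0871, 0.0936 and 0.275). For PSMD5 the baseline values of the 6 shunt pigs (8.30 to 8.64) all lay above those of the 5 control pigs (7.89 to 8.20). PSMD10 read 7.59 to 7.84 in the shunt pigs (median 7.79), and 7.12, 7.33, 7.10, 7.43 and 7.51 in control pigs 1 to 5, again with no overlap. PSMC3, an ATPase, read 10.51 to 10.82 in the shunt pigs and 10.84 to 11.23 in the control pigs. Shunt pigs 5 and 6, which form an array set of their own, read 8.64 and 8.47 for PSMD5, 7.78 and 7.76 for PSMD10, and 10.77 and 10.51 for PSMC3. Shunt pigs 1 to 4 spanned 8.30 to 8.57, 7.59 to 7.84 and 10.61 to 10.82, so pig 5 lay above that span for PSMD5 and pig 6 below it for PSMC3.

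Of a list of 33 partners and regulators of the proteasome that are not subunits, 11 were measured. At 120 min 2 of them were called higher and 2 lower, shares near those of all genes (13.1% and 20.8%), with a median change of -0.05. ZFAND2A, a stress-induced protein that binds the proteasome, rose by 1.07 ± 0.25 (SE, adjusted p = 0.00225), and AKIRIN2, which brings proteasomes into the nucleus, by 0.18 ± 0.07 (adjusted p = 0.0469; the call ended without any one of shunt pigs 1, 4, 5 and 6 or control pigs 1, 2 and 4, at 0.15 to 0.20). PAAF1, an assembly chaperone of the base like PSMD5, fell by 0.42 ± 0.06 (adjusted p = 1.26e-05), and NUB1, which brings NEDD8-tagged proteins to the proteasome, fell by 0.24 ± 0.05 (adjusted p = 0.000425). By arm, no partner passed in limma in the control pigs (smallest adjusted p = 0.0557), where 3.44% of all genes were higher and 3.58% lower. In the shunt pigs PAAF1 fell by 0.52 (adjusted p = 4.7e-05) and NUB1 by 0.25 (adjusted p = 0.00502), and AKIRIN2 did not pass. ZFAND2A had 1.53 ± 0.34 in the shunt pigs (adjusted p = 0.0018). Control pigs had 0.52 ± 0.37, which did not pass (adjusted p = 0.473). The difference between arms was 1.01 ± 0.51 and did not pass (adjusted p = 0.74). Over the course 3 partners were called higher and 3 lower in the shunt arm (16.7% and 23.6% of all genes). In the control arm 2 were lower (5.59% of all genes). ZFAND2A had 1.81 in the shunt pigs and 0.49 in the control pigs (adjusted p = 0.508), and the difference of 1.32 ± 0.51 did not pass (adjusted p = 0.289). PAAF1 was lower by 0.69 and 0.44.

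A list of 38 genes held ubiquitin and the enzymes that activate and conjugate it or related modifiers such as NEDD8. Of these, 25 were measured, and 2 were called higher and 6 lower at 120 min, with a median change of -0.04. The shares were again near those of all genes (13.1% and 20.8%). UBA3, a subunit of the NEDD8-activating enzyme, fell by 0.30 ± 0.06 (SE, adjusted p = 0.000571), the conjugating enzyme UBE2E3 by 0.29 ± 0.07 (adjusted p = 0.00185), UBE2R2 by 0.24 ± 0.06 (adjusted p = 0.00401) and UBE2Q1 by 0.21 ± 0.05 (adjusted p = 0.00126). Taken by arm, UBA3, UBE2E3 and UBE2Q1 passed in the shunt pigs (-0.37, -0.29 and -0.24) and UBE2R2 did not. None of them passed in the control pigs. From baseline to the last biopsy 6 were higher and 6 lower in the shunt arm (16.7% and 23.6% of all genes) and 1 was lower in the control arm (5.59% of all genes).

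The list of MHC class I processing and its interferon inducers had 21 of 30 genes measured, 4 called higher and 3 lower at 120 min (13.1% and 20.8% of all genes), with a median change of 0.01. The interferon regulatory factor IRF1, a known inducer of the immunoproteasome genes, rose by 1.11 ± 0.20 (SE, adjusted p = 0.000181). IRF8 rose by 0.80 ± 0.16 (adjusted p = 0.000478) and the kinase JAK2 by 0.82 ± 0.13 (adjusted p = 2.51e-05), while the repressor IRF2 fell by 0.54 ± 0.07 (adjusted p = 4.28e-06). Taken by arm, IRF1, JAK2 and IRF2 passed in both arms. In the shunt pigs these calls held whichever pig was left out. In the control pigs each of the calls ended without any one of 3 pigs. Of 10 other settings, 3 ended the control call of IRF2 and 2 that of JAK2. IRF8 passed in the shunt pigs (0.91, adjusted p = 0.00302) and not in the control pigs. From baseline to the last biopsy 6 genes of the list were higher and 2 lower in the shunt arm (16.7% and 23.6% of all genes). In the control arm 2 were higher and 1 lower (4.39% and 5.59% of all genes). Over the same course in the shunt arm, with 16.7% of all genes higher, 8 of 17 leukocyte markers were called higher and none lower, and their part in these values was not tested.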

How the data were processed

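Total RNA of 33 right ventricular biopsies from 11 pigs was hybridised to 1 array each, per the labels' protocols. The deposited values are log2 probe set levels made by the authors with RMA, per the submitters' processing notes; no version of it is named there, and it is not known whether all arrays went through it as 1 batch. RMA equalises the distributions of arrays, so a shift shared by all genes cannot be seen. After 124 control probe sets were left out, 23999 were fitted with limma 3.58.1 in R 4.3.3, with 6 groups of arm and biopsy and pig as a fixed block (18 residual degrees of freedom). Biopsies share a pig by the labels, and residuals of the same pig correlated at a median of 0.39 against -0.05 between pigs. The baseline comparison of arms used the 11 baseline arrays with no block. Tests were two-sided, with Benjamini-Hochberg adjustment over all probe sets and a threshold of 0.05. The fit was tested on simulated data.

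Named genes were up to 6 called rises and 6 called falls at 120 min and up to 3 of each direction per arm for later changes. For each difference between arms the member of smallest p was named, and the catalytic and PSME1 to PSME3 genes and up to 4 genes of each pathway list were always named. The members and lists were chosen with earlier results of these data known. Alternatives were other scalings, blocks, variance models, filters, weights and probe set rules, each array set alone, and each pig left out.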

Additional observations from a re-analysis of the deposited data

Results flagged for a closer look

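Among 96 groups of arrays of 16 named members, 6 held an array whose distance from its nearest neighbour was large against the range of its group by Dixon's criterion at the 95% level. Chance marks about 1 in 20 groups. PSMD12 was low at baseline in shunt pig 6 (8.50, against 8.77 to 8.88 in the others). PSMA5 was high at baseline in shunt pig 3 (9.81, with the next at 9.64) and low at the last biopsy in shunt pig 5 (9.61, with the next at 10.04). PSMD1 was low at baseline in control pig 2 (10.44, with the next at 10.50). The catalytic subunits PSMB6 and PSMB7 were both low at the last biopsy in control pig 2, at 10.79 (next 11.06) and 10.59 (next 10.88).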

How the results depend on the processing

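No change of a named member reversed its called direction under any alternative run: 573 values kept their side of the threshold and 50 lost it. The 573 include changes that passed in neither fit, whatever their sign, such as PSMB7 at 120 min (-0.08 to 0.03). They also include changes of 1 arm refitted without a pig of the other arm, so they are no measure of how firm the calls were. Of the counts of called members, 280 were within 1.5 times the reported count and 31 were not. At 120 min over all pigs, the 3 called higher became 1 with no replicate block, 5 with array quality weights, and 1 in each array set fitted alone, and the 4 called lower became 2, 0 and 2 in the sets of shunt pigs 1 to 4, shunt pigs 5 and 6 and the control arm. Leaving out a pig gave 1 to 4 higher. For the shunt arm at 120 min, the 6 called became 3 with no replicate block, 3 and 1 in its array sets, and 3 to 7 without a pig. Over the course in the control arm, the 2 called lower became 1 with no replicate block and 1 to 2 without a pig. In the shunt arm, the 7 called higher became 4 when only the arrays compared were fitted, and 3 and 1 in the array sets. The 7 called lower became 4 with no replicate block, 2 with only the arrays compared, 2 and 1 in the array sets, and 2 to 7 without a pig. Single array sets hold fewer pigs; otherwise the cause was not tested. PSME4 passed under all alternatives run at 120 min and over the course in both arms. PSMD5 did so too, except at 120 min in shunt pigs 5 and 6 alone (-0.45). No scaling moved the median probe set by over 0.1. Signal over background was not given with the values, so no limit of detection was set.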
